A study of Mus musculus with 6 samples.

Results

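Serpins and cystatins are protein families that inhibit proteases, and 10 of their genes were followed in CD8+ T cells taken from a melanoma and from the spleen. The members were taken by symbol: the clade B serpins Serpinb6a, Serpinb6b, Serpinb9, Serpinb9b and Serpinb1a, the clade A serpins Serpina3f and Serpina3g, and the cystatins Cst7, Cst3 and Cstb. All 10 were found among the 55335 gene rows of the count table, and all 10 were among the 19783 genes that passed the filter on low counts. The tumor group was P14 TIL, which are CD8+ T cells with a transgenic T cell receptor for the GP33-41 peptide, sorted from B16-GP33-41 melanomas of C57BL/6 mice. It was set against P14 Sp, the same donor cells sorted from the spleens of the tumor-bearing mice. In both groups the cells had been transferred on day 11 after tumor implantation, the labelled genotype was P14 TCR transgenic, the labelled age was 10 weeks, and there were 3 libraries. The labels do not say whether a library is 1 mouse or a pool, or how long after transfer the cells were taken. P-values therefore measure the spread between these libraries, which may be technical.

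A serpin is a single-use trap: the target protease cuts an exposed loop of the serpin, and the complex is then locked together. Clade B serpins stay inside the cell, where they are placed to meet proteases that leak from granules. Cystatins and stefins instead block the active site cleft of papain-like cysteine proteases, the cathepsins of endosomes and lysosomes, and they do so reversibly. A cytotoxic T cell stores granzymes and cathepsins in the same granules and is known to use such inhibitors against its own proteases.

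Library totals lay between 36198681 and 38263483 counts in tumor and between 35095261 and 37650999 counts in spleen. The T cell genes checked against the label were abundant in both tissues, with Cd8a at 645 ± 21.4 CPM in tumor, against 364 ± 6.62 CPM in spleen and Cd3e at 594 ± 7.40 and 634 ± 4.66 CPM (CPM, a share of the library total in which each library sums to 1000000, mean ± SD, n = 3 each). Of the 7 T cell genes, all tested, 1 was higher in tumor (Cd8a), 2 were lower and 4 did not pass. Named after their values were seen, the lower ones were Cd8b1 (mean 751 CPM in tumor, 1174 CPM in spleen) and Cd2 (311 and 366 CPM). The summed T cell list held 3674 to 3943 CPM in tumor and 4034 to 4099 CPM in spleen. Of the markers of other cells that the sort could hold, 54 were tested, and 43 were lower and 6 higher in tumor. Over all genes tested, 35.9% were called lower and 34.8% higher. The summed B cell list held 281 to 283 CPM in tumor, nearly all of it Ighm, and 1353 CPM in each spleen library. Tumor libraries differed more among themselves than spleen libraries, with a biological coefficient of variation of 10.5% in tumor and 3.21% in spleen. The library codes end in 1 number for tumor and in another for spleen. What that number marks is not given, so it and tissue cannot be told apart. In bulk RNA, fewer cells of a type and less RNA per cell cannot be told apart either.

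RefSeq promoter sequences (GRCm38.p6) were found for 8 of the 10 members, all but Serpinb1a and Cstb. The 250 bases before the start of 4 of them are shown. These genes form pairs of neighbours that moved together in the data below, Serpinb9 with Serpinb9b upward and Serpina3f with Serpina3g downward. Serpinb6b, the next member on the other side of Serpinb9, also rose, and its window is not shown. Capitals mark matches to any of the 4 motifs searched on both strands. These were the interferon regulatory factor motif (GAAA and GAAA, 2 bases apart), the STAT motif TTCNNNGAA, the AP-1 motif TGANTCA and the NF-kB motif (GGGA and TTCC, 2 bases apart).
Serpinb9, chr13:33004291-33004540, plus strand: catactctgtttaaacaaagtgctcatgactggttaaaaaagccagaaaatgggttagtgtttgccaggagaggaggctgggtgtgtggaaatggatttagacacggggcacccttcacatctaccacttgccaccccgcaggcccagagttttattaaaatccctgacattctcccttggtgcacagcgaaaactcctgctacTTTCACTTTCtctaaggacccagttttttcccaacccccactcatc
Serpinb9b, chr13:33027164-33027413, plus strand: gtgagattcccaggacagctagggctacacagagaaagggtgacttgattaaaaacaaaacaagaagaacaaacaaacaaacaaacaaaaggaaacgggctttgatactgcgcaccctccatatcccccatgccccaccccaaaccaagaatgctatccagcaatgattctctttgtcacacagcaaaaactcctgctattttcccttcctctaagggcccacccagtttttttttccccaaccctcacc
Serpina3f, chr12:104214294-104214543, plus strand: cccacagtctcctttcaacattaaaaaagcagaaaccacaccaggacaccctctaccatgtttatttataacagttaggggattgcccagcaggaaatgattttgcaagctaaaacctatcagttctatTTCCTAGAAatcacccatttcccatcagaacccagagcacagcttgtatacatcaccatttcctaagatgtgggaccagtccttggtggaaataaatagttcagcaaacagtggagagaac
Serpina3g, chr12:104235897-104236146, plus strand: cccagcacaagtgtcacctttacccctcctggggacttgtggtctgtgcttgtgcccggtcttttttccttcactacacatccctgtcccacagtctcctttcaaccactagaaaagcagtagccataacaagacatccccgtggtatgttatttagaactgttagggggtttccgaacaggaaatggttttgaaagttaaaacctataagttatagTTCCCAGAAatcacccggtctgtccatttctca
The windows of Serpinb9b, Serpina3f and Serpina3g end before their own gene models of GENCODE release M21 begin. That of Serpinb9 lies inside its longer gene model. The Serpinb9 window held 1 match, to the interferon regulatory factor motif on the minus strand, starting 46 bases before the start. Of 32851 windows of the same length before annotated starts, 2.98% held that motif. Serpinb9b held no match to the 4 motifs. The best local alignment of its window to that of Serpinb9 covered 70 positions with 81.4% identity, and over the whole windows identity was 56.3%. The best local alignment of the windows of Serpina3f and Serpina3g covered 147 positions with 81.0% identity, and over the whole windows identity was 43.0%. Whole-window identity was 43.3% for Serpinb9 with Serpina3g, which lie on different chromosomes. It was 42.3% for Serpinb6b with Serpinb9, whose best local alignment covered 9 positions. Serpina3f and Serpina3g each held 1 match to the STAT motif, which 7.02% of all windows held. The match began 121 bases before the start of Serpina3f and 33 bases before that of Serpina3g, and no 2 motifs overlapped in these windows. Serpinb6a and Serpina3f each had 2 annotated starts. Of the windows not shown, 1 of Serpinb6a held an interferon regulatory factor and a STAT match that overlap and its other held none, the second of Serpina3f held the same STAT match again, and those of Serpinb6b, Cst7 and Cst3 held none. The AP-1 motif stood in 6.75% and the NF-kB motif in 1.21% of all windows. A match describes letters only, and no match says only that these letters are not in the window.

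Of the 10 members, 5 were higher and 3 lower in P14 cells from tumor, and 2 did not pass. Serpinb9b, Serpinb6b and Serpinb9 rose 8.13-fold, 4.82-fold and 4.55-fold, Cst7 rose 2.3-fold and Cstb 1.33-fold, while Cst3, Serpina3f and Serpina3g fell to between 0.549 and 0.638 of their spleen level. Most genes in these cells differ between the tissues: the same test called 70.7% of all genes tested, 34.8% as higher and 35.9% as lower, so 8 of 10 is not far from the background. Against a null of a 2-fold change 4 of 10 members were higher (Serpinb9b, Serpinb6b, Serpinb9 and Cst7), where 5.87% of all genes tested were called. In the other direction 0 of 10 were called by edgeR, where the background was 9.42% (15.3% in either direction). At an unadjusted p under 0.05 of that test the count was also 0, as it was with DESeq2 and with limma. The libraries of the tissues did not overlap for 9 members, 6 with tumor above and 3 with tumor below, where the background was 35.1% and 39.4%. The median log2 fold change was 0.30 over the members and -0.02 over all genes tested.

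**Figure D1:**
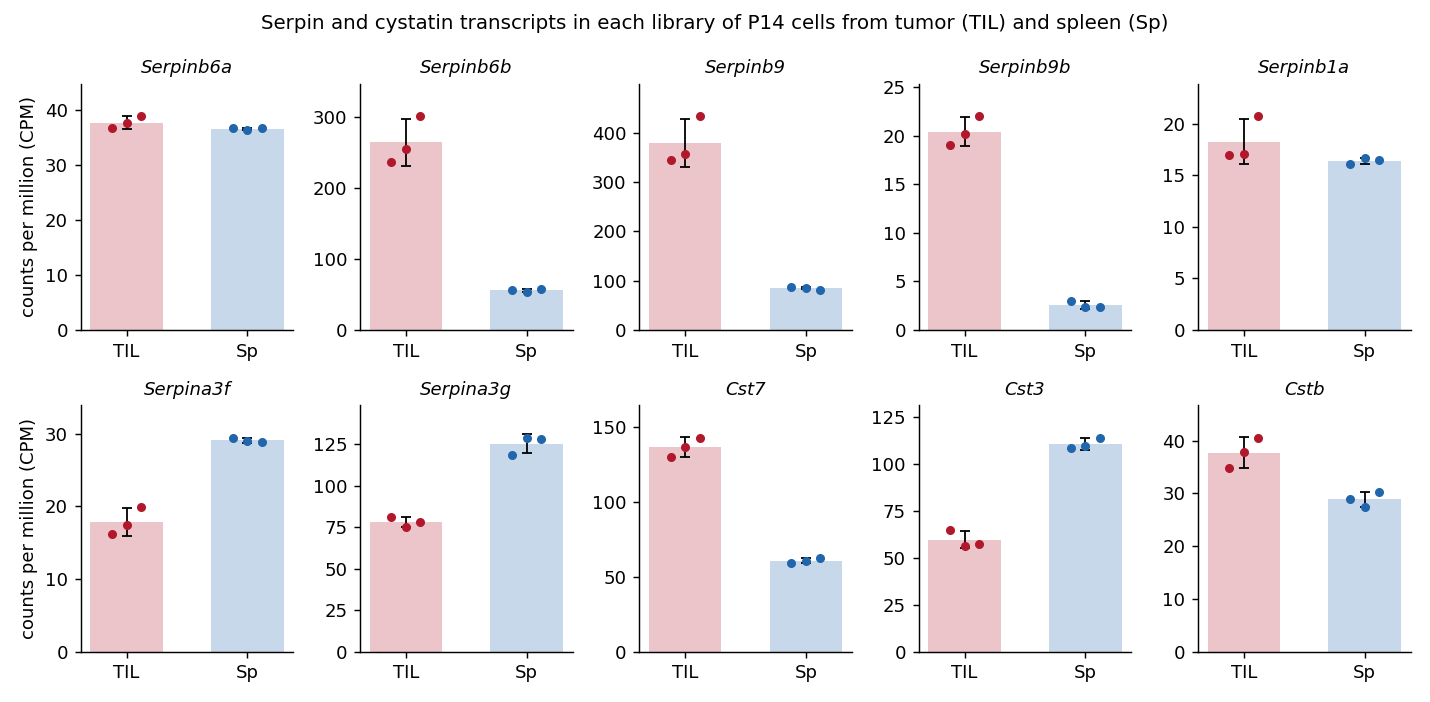
CPM of each member (y axis, a scale of its own in each panel) in P14 cells from tumor (TIL, left) and spleen (Sp, right); points are libraries, bars are means and error bars are 1 SD (n = 3). The 3 tumor libraries lie above all spleen libraries for Serpinb6b, Serpinb9, Serpinb9b, Serpinb1a, Cst7 and Cstb and below them for Serpina3f, Serpina3g and Cst3.

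Serpinb9 encodes the inhibitor of granzyme B that protects cytotoxic T cells from their own granules. It had 344, 356 and 434 CPM in the tumor libraries, against 86.8, 85.8 and 81.6 CPM in the spleen libraries. Every tumor library was thus far above every spleen library, and the third tumor library was the highest. The log2 fold change was 2.18 with a standard error of 0.08 (adjusted p = 1.0e-09, edgeR quasi-likelihood test with Benjamini-Hochberg adjustment over all genes tested), and 2.10% of genes tested had a larger one. Without the third tumor library it was 2.09. Of the 50-base windows in Serpinb9 transcripts, the length of the reads, 99.6% occur in no other gene's transcript, so few reads could match a copy exactly. Matches with mismatches were not examined.

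Serpinb6b encodes a mouse serpin known to inhibit granzyme A. Its values were 237, 254 and 302 CPM in tumor, against 56.9, 53.7 and 57.2 CPM in spleen. The groups were well apart, with the third tumor library again the highest, and the log2 fold change was 2.27 (SE 0.08, adjusted p = 8.6e-10, edgeR). Unique 50-base windows made up 97.1% of its transcripts.

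Serpinb9b, a rodent relative of Serpinb9 that lies next to it, had the largest fold change of the 10 at a much lower level. It was at 19.0, 20.2 and 22.1 CPM in tumor, against 3.01, 2.31 and 2.36 CPM in spleen. The lowest tumor library was more than 6 times the highest spleen library, and the log2 fold change was 3.02 (SE 0.12, adjusted p = 1.5e-09, edgeR). An antisense gene model, Gm36099, overlaps 8.30% of its exonic length. Since it is not stated whether counting used the strand, reads of the pair cannot be told apart there.

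Serpinb6a and Serpinb1a, which flank the other clade B members on the chromosome, did not pass. Serpinb6a, an inhibitor of cathepsin G and trypsin-like proteases, was at 36.6, 37.5 and 38.9 CPM in tumor, against 36.65, 36.28 and 36.64 CPM in spleen. The libraries of the tissues overlapped (log2 fold change 0.07, SE 0.06, adjusted p = 0.29, edgeR). Its exons overlap those of Nqo2, Ripk1 and 1110046J04Rik on the opposite strand, and 74.9% of its 50-base windows were unique. Serpinb1a, an inhibitor of neutrophil elastase, proteinase 3 and cathepsin G, had 17.0, 17.0 and 20.8 CPM in tumor, against 16.08, 16.65 and 16.53 CPM in spleen. The tissues did not overlap, as for 74.5% of all genes tested, but 2 tumor libraries were close to spleen and the third was higher (log2 fold change 0.18, SE 0.09, adjusted p = 0.086, edgeR). Without the first tumor library it passed (0.23, adjusted p = 0.0365, edgeR), and without the third it was 0.10 (adjusted p = 0.23, edgeR).

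The third tumor library held the highest tumor value of 8 of the 10 members, all but Serpina3g and Cst3, while it was the highest for 41.3% of all genes tested. Leaving it out removed none of the 8 calls.

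**Figure D2:**
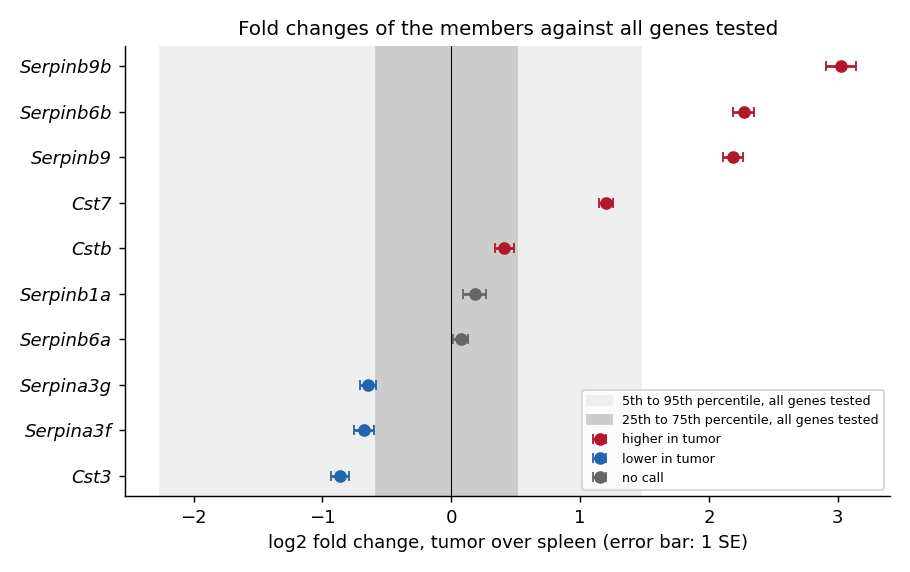
Log2 fold change of each member, tumor over spleen (x axis), with 1 SE as error bar, in order of size (y axis); grey bands give the 25th to 75th and 5th to 95th percentile of all genes tested. Serpinb9b (3.02), Serpinb6b (2.27) and Serpinb9 (2.18) lie beyond the 95th percentile of 1.47, and Cst7 (1.20) lies below it.

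The clade B members lie in 1 cluster on mouse chromosome 13 (mm10, GENCODE release M21). In order along the chromosome these are Serpinb1a (ENSMUSG00000044734.16, 32842092 to 32851185, minus strand), Serpinb6b (ENSMUSG00000042842.11, 32965209 to 32979067, plus strand), Serpinb9 (ENSMUSG00000045827.10, 33003250 to 33017957, plus strand), Serpinb9b (ENSMUSG00000021403.3, 33027416 to 33041884, plus strand) and Serpinb6a (ENSMUSG00000060147.15, 33917918 to 34002794, minus strand). The table held 11 other serpin genes of this cluster, of which 8 were tested. Of these, 6 were higher in tumor and 0 lower, where the test called 34.8% and 35.9% of all genes tested. The median log2 fold change of the 8 was 1.92. The count of 0 was also 0 at an unadjusted p under 0.05 and with DESeq2 and limma. Against a 2-fold null edgeR called all 6, limma 5 and DESeq2 2. Of the 19783 genes tested, edgeR called 1161 as higher (5.87%), limma 992 and DESeq2 871. Serpinb9d was at 8.41 ± 0.368 CPM in tumor, against 1.94 ± 0.153 CPM in spleen (log2 fold change 2.14, SE 0.12), and Serpinb6c at 9.22 ± 1.12 and 2.69 ± 0.478 CPM (1.80, SE 0.14). Named after their values were seen, the others were Serpinb1b (1.41), Serpinb9e (2.03), Serpinb9f (2.40) and Serpinb9g (2.13), the last 3 at 0.487 to 1.19 CPM in tumor. The 2 that did not pass were Serpinb1c (0.25) and the pseudogene Serpinb1-ps1 (0.31), which lie beside Serpinb1a. The tested genes that rose thus form a run from Serpinb6b to Serpinb6c, with Serpinb1a and its nearest tested neighbours on one side and Serpinb6a on the other.

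Counts of related genes can be split or shared by the counting, which bears on this run. Serpinb9d, Serpinb9e, Serpinb9f and Serpinb9g share 50-base windows with each other and with Gm11397, an annotated gene of the same cluster without a serpin symbol. Of the windows of Serpinb9f 63.9% also occur in Gm11397, 37.8% in Serpinb9g and 21.3% in no other gene. Serpinb9f and Gm11397 held the same counts in all 6 libraries, so their values cannot be told apart, and those of the other copies are uncertain. None of the 4 shares an exact window with Serpinb9. Serpinb9d kept nearly the same ratio to Serpinb9 in both tissues, at 2.33, 2.39 and 2.01 counts per 100 counts of Serpinb9 in tumor, against 2.05, 2.29 and 2.55 in spleen. These ranges overlapped (two-sided exact permutation p = 0.8, where 0.1 is the smallest that 3 against 3 allows). For Serpinb9b the ratio to Serpinb9 did not overlap between the tissues, at 5.53, 5.68 and 5.09 per 100 in tumor, against 3.47, 2.69 and 2.90 in spleen (exact permutation p = 0.1). Within the Serpinb6 genes, Serpinb6a stood at 15.43, 14.75 and 12.88 counts per 100 counts of Serpinb6b in tumor, against 64.4, 67.6 and 64.0 in spleen. With the copies summed, where a read may have been counted for more than 1 copy, the 7 Serpinb9 genes had a log2 fold change of 2.22 (SE 0.08) and the 5 Serpinb6 genes one of 1.74 (SE 0.07).

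**Figure D3:**
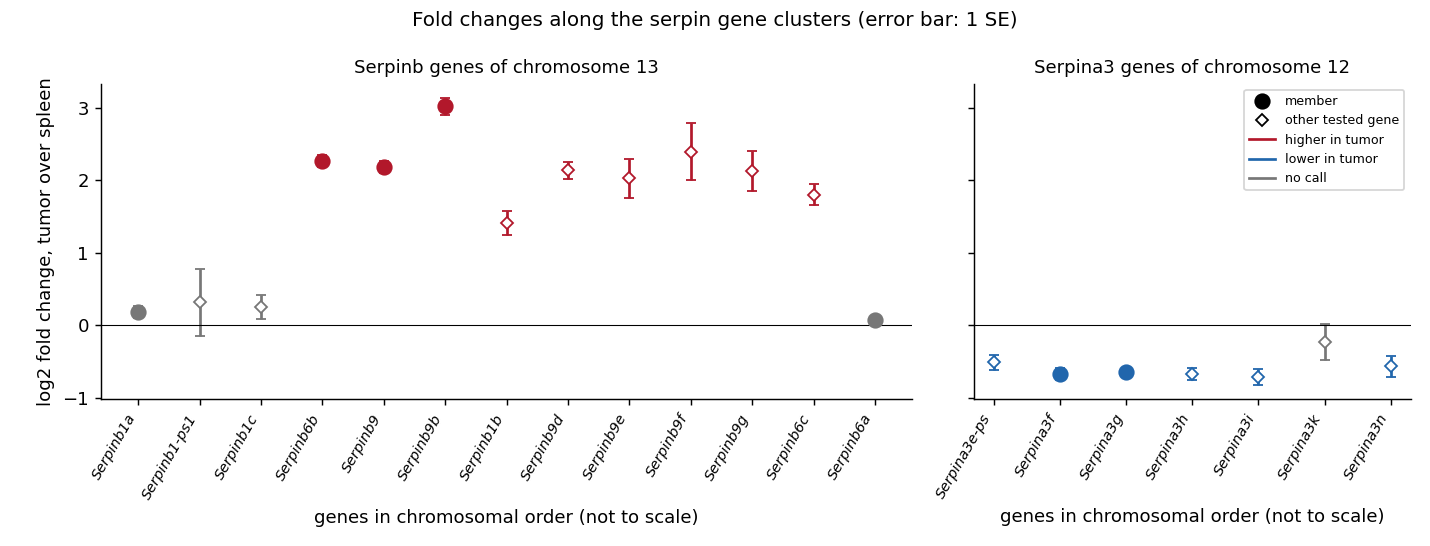
Log2 fold change, tumor over spleen (y axis, error bars 1 SE), of the tested serpin genes of the chromosome 13 cluster (left) and the chromosome 12 cluster (right), in chromosomal order; filled circles are members and open diamonds other family genes. On chromosome 13 a run of genes from Serpinb6b to Serpinb6c lies between 1.41 and 3.02, while Serpinb1a (0.18) and Serpinb6a (0.07) lie near 0; on chromosome 12 the called genes lie between -0.72 and -0.52.

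The clade A members were lower in tumor. Serpina3g encodes Spi2A, an inhibitor of lysosomal cathepsins that is known to protect CD8+ T cells on their way to memory. It had 81.50, 75.24 and 78.35 CPM in tumor, against 118.9, 129.2 and 128.1 CPM in spleen. All tumor libraries were below all spleen libraries (log2 fold change -0.65, SE 0.06, adjusted p = 2.5e-06, edgeR). Serpina3f, its neighbour, had 16.2, 17.5 and 19.9 CPM in tumor, against 29.5, 29.0 and 28.8 CPM in spleen. The tissues were apart here too (log2 fold change -0.68, SE 0.08, adjusted p = 1.4e-05, edgeR). Neither was called against a 2-fold null.

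Both lie on chromosome 12 on the plus strand, Serpina3f (ENSMUSG00000066363.12) at 104214544 to 104221129 and Serpina3g (ENSMUSG00000041481.17, placed by the preceding version of its identifier) at 104236245 to 104241939. Of the other Serpina genes of that cluster, 26 were in the table and 5 were tested. Over all genes tested, 34.8% were called higher and 35.9% lower. Of the 5, 0 were higher (also 0 at an unadjusted p under 0.05 with edgeR, DESeq2 and limma) and 4 were lower, namely Serpina3i (-0.72), the annotated pseudogenes Serpina3h (-0.68) and Serpina3e-ps (-0.52), and Serpina3n (-0.57), while Serpina3k was at -0.23 and did not pass. These genes are close copies, and 84.5% of the 50-base windows of Serpina3g and 89.4% of those of Serpina3f were unique. The ratio of Serpina3f to Serpina3g was 19.9, 23.2 and 25.4 per 100 in tumor, against 24.8, 22.4 and 22.5 in spleen, and the tissues overlapped (exact permutation p = 1.0). Serpina3h kept 11.9 ± 0.364 counts per 100 of Serpina3g in tumor and 12.1 ± 0.373 in spleen (n = 3 each, exact permutation p = 0.5). With the 14 Serpina3 genes summed the log2 fold change was -0.65 (SE 0.06).

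Serpina3g is known as a gene that interferon gamma induces. Of 16 genes on a list of interferon gamma targets, 14 were lower in tumor and 0 higher, where the background was 35.9% and 34.8%, and the median log2 fold change was -0.81. The count of 0 held at an unadjusted p under 0.05 with edgeR, DESeq2 and limma. Irf1, a transcription factor of the interferon response, was at 116 ± 7.11 CPM in tumor, against 303 ± 6.93 CPM in spleen, and Gbp4, a guanylate-binding protein, at 170 ± 9.27 and 316 ± 8.87 CPM. The immunoproteasome genes Psmb8 (0.01) and Psmb9 (-0.09) did not pass. Dendritic cell and macrophage markers were lower in the same libraries, at the levels given with Cst3, and their part in these values was not tested.

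The cystatins split in direction. Cst7 encodes cystatin F, an inhibitor found in the endosomes and granules of cytotoxic cells, where it restrains cathepsin C, the enzyme that activates granzymes. It had 130, 137 and 143 CPM in tumor, against 59.1, 60.4 and 62.4 CPM in spleen. The tissues were well apart (log2 fold change 1.20, SE 0.06, adjusted p = 7.9e-09, edgeR; against a 2-fold null, adjusted p = 0.0036). Cstb, the cytosolic stefin B, had 34.8, 37.8 and 40.6 CPM in tumor, against 29.0, 27.5 and 30.3 CPM in spleen. Tumor libraries were all higher, by a small amount (0.41, SE 0.07, adjusted p = 0.00036, edgeR).

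Cst3 encodes cystatin C, a secreted inhibitor of cathepsins that dendritic cells and macrophages express strongly. It had 64.6, 56.3 and 57.5 CPM in tumor, against 108.5, 109.2 and 114.0 CPM in spleen. Every tumor library was below every spleen library (log2 fold change -0.87, SE 0.07, adjusted p = 6.6e-07, edgeR). In the same libraries 12 of 12 macrophage and monocyte markers were lower in tumor, where 35.9% of all genes tested were called lower. Their summed level was 33.3 to 34.4 CPM in tumor and 255 to 267 CPM in spleen. Lyz2 led that list in spleen (10.2 ± 0.799 CPM in tumor, 91.1 ± 2.87 CPM in spleen), and Csf1r led it in tumor (11.4 ± 0.370 and 43.9 ± 3.17 CPM). Of the dendritic cell and MHC class II markers 8 of 8 were lower, and Clec9a and Siglech had 0 counts in tumor. This list summed to 1490 to 1529 CPM in spleen, against 42.0 to 44.2 CPM in tumor, led by Cd74 in both tissues. Nearly all of the spleen sum was Cd74 (mean 1012 CPM), H2-Ab1 (319 CPM) and H2-Aa (168 CPM). Spleen means were 7.26 CPM for Xcr1 (log2 fold change -0.52), 3.05 CPM for Zbtb46 (-0.53) and 1.62 CPM for Flt3 (-7.01). The B cell list was lower in tumor too, so the sum is not a measure of dendritic cells alone. The part of other cells in the lower Cst3 level, and in the levels of the 5 members that were higher in tumor, was not tested.

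Cst3 (ENSMUSG00000027447.6, 148871722 to 148875692, minus strand) and Cst7 (ENSMUSG00000068129.5, 150570415 to 150578944, plus strand) lie on chromosome 2, and Cstb (ENSMUSG00000005054.7, 78425669 to 78427622, plus strand) on chromosome 10. No 50-base window of the 3 cystatins occurred in another gene. Counted against each other within a library, which needs no scaling, Cst7 stood at 202, 244 and 249 counts per 100 counts of Cst3 in tumor, against 54.5, 55.3 and 54.8 in spleen. Per length too, as given next, Cst7 was above Cst3 in tumor and below it in spleen.

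Levels per length (RPKM, the CPM divided by the exonic length in kilobases) put the members in a different order in each tissue. In tumor Cst7 (139 ± 6.55 RPKM), Serpinb6b (117 ± 14.9 RPKM) and Serpinb9 (108 RPKM, 98.6 to 124) were the highest, followed by Cstb (62.6), Cst3 (47.0) and Serpina3g (37.2). Serpinb1a (7.94), Serpina3f (7.80), Serpinb6a (6.96) and Serpinb9b (6.10) were the lowest. The ranges of Serpinb6b, at 104.8 to 133.5 RPKM, overlapped with those of Serpinb9 and of Cst7, and those of Serpina3f overlapped with Serpinb1a and with Serpinb6a. In spleen Cst3 came first (87.3 ± 2.36 RPKM), then Cst7 (61.5), Serpina3g (59.6), Cstb (48.0), Serpinb6b (24.7) and Serpinb9 (24.3). Serpina3f (12.7), Serpinb1a (7.13), Serpinb6a (6.75) and Serpinb9b (0.764) followed, and the ranges of Cst7 and Serpina3g and of Serpinb6b and Serpinb9 overlapped.

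Proteases of the classes that these inhibitors act on were measured in the same libraries. The lists were taken by class, not as known targets of the members. Of 12 granule serine proteases 11 were tested, and 6 were higher (Gzmb, Gzmc, Gzmd, Gzme, Gzmf and Gzmg) and 4 lower in tumor. The same test called 34.8% of all genes tested as higher and 35.9% as lower. Of the 6, Gzmd, Gzme, Gzmf and Gzmg were scarce, with tumor means of 0.970 to 1.65 CPM and 4 to 8 counts over the spleen libraries. Gzmc had a mean of 45.4 CPM in tumor, against 1.58 CPM in spleen. Gzmb, granzyme B, was at 1776 ± 99.5 CPM in tumor, against 572 ± 9.18 CPM in spleen, while Gzma, granzyme A, was at 228 ± 37.9 CPM in tumor, against 534 ± 14.4 CPM in spleen. Serpinb9 stood at 20.2, 20.5 and 23.0 counts per 100 counts of Gzmb in tumor, against 15.07, 14.85 and 14.55 in spleen, so the ratio was 1.43 times as high in tumor and the libraries did not overlap (exact permutation p = 0.1). Serpinb6b stood at 122, 114 and 112 counts per 100 of Gzma in tumor, against 10.8, 10.2 and 10.4 in spleen, 11.1 times as high in tumor (exact permutation p = 0.1). The serine proteases of neutrophil granules, the targets of Serpinb1a, were scarce: Elane had 0 counts in tumor and 78 over the spleen libraries, Prtn3 had 2 and 49, and Ctsg had 1 and 11 and was not tested. Of the neutrophil markers 7 of 7 tested were lower, with a summed level of 0.627 to 0.932 CPM in tumor and 25.1 to 29.4 CPM in spleen, and Camp and Ngp had 0 counts in tumor.

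Papain-like cathepsins and legumain had a median log2 fold change of -1.05. Of 10 tested genes 8 were lower and 0 higher, where the background was 35.9% and 34.8% of all genes tested. The count of 0 held at an unadjusted p under 0.05 with edgeR, DESeq2 and limma. Ctsc, cathepsin C, was at 129 ± 13.8 CPM in tumor, against 168 ± 2.26 CPM in spleen (-0.36), Ctsb, cathepsin B, at 260 ± 1.90 and 300.4 ± 3.61 CPM (-0.18) and Ctss, cathepsin S, at 37.8 ± 3.24 and 84.7 ± 0.543 CPM (-1.14). Ctsz (0.10) and Ctsl (-0.32, adjusted p = 0.070, edgeR) did not pass. Cst7 stood at 113.5, 106.3 and 100.6 counts per 100 counts of Ctsc in tumor, against 35.8, 35.7 and 36.8 in spleen, or 2.96 times as high in tumor. Cstb stood at 14.5 ± 1.23 counts per 100 of Ctsb in tumor and 9.63 ± 0.518 in spleen. For Cst3 the direction depended on the protease: it stood at 22.8 ± 1.62 counts per 100 of Ctsb in tumor and 36.8 ± 0.920 in spleen, but at 159 ± 25.3 per 100 of Ctss in tumor and 131 ± 3.06 in spleen (n = 3 each). In all, 22 such ratios were formed, chosen after the values were seen. Their exact permutation p cannot go below 0.1, so none can pass a threshold of 0.05 before or after adjustment. They compare transcripts, not proteins, and macrophage markers were lower in the same tumor libraries.

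**Figure D4:**
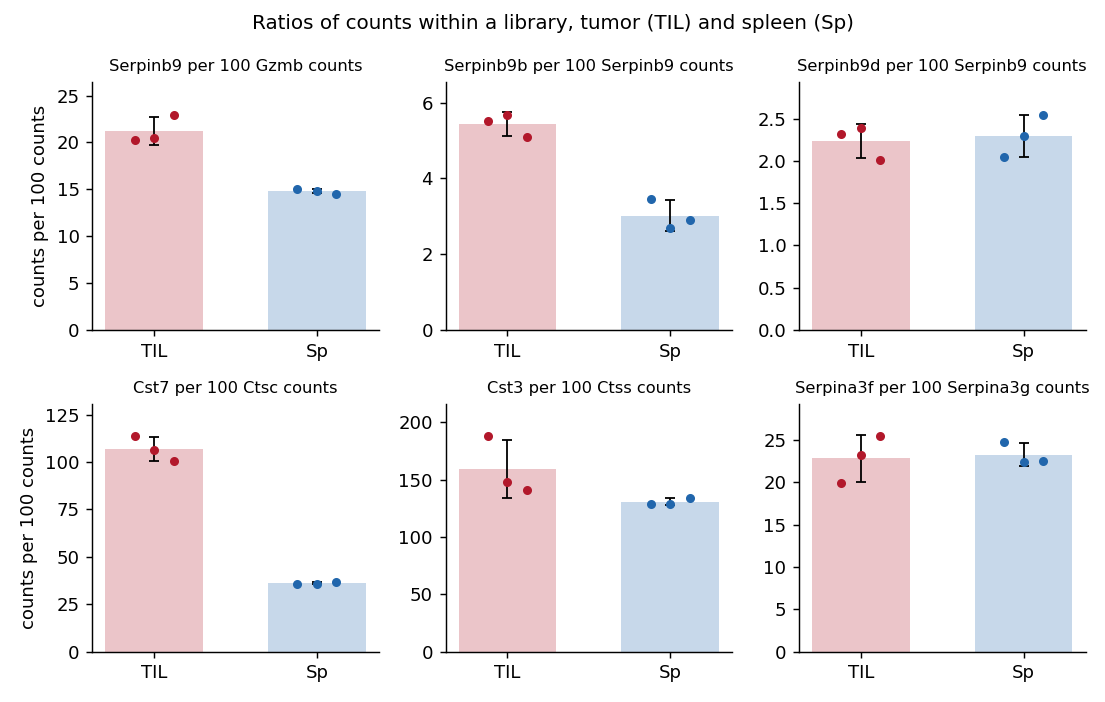
Counts of 1 gene per 100 counts of another within a library (y axis, a scale of its own in each panel) in tumor (TIL, left) and spleen (Sp, right); points are libraries, bars are means and error bars are 1 SD (n = 3). Serpinb9 per Gzmb, Serpinb9b per Serpinb9, Cst7 per Ctsc and Cst3 per Ctss were higher in every tumor library, while Serpinb9d per Serpinb9 and Serpina3f per Serpina3g overlapped.

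The rest of the family was taken by symbol. The 10 members left out of it had been chosen with earlier results of these data known. This rest held 74 other serpin, cystatin and stefin genes, of which 43 had a count in some library and 20 were tested. Of the 20, 9 were higher and 8 lower, where the test called 34.8% and 35.9% of all genes. Against a 2-fold null edgeR called 8 as higher and 2 as lower, where the background was 5.87% and 9.42%. The 8 include the 6 genes of the chromosome 13 cluster counted above, some of which share windows. With limma the counts were 7 and 2, where 992 and 1518 of the 19783 genes tested were called. With DESeq2 they were 3 and 2, where 871 and 1433 were called. Serpine2, the thrombin and urokinase inhibitor protease nexin-1, had the largest rise, with 83.8 ± 1.40 CPM in tumor, against 2.42 ± 0.148 CPM in spleen (log2 fold change 5.14, SE 0.08, adjusted p = 2.3e-12, edgeR). Per length its level was 10.1 RPKM in tumor and 0.292 RPKM in spleen. Outside both clusters the other higher genes were Cst6, cystatin M/E, an inhibitor of legumain (0.731 ± 0.0372 CPM in tumor, 0.183 ± 0.0178 CPM in spleen), and Serpinf1, both below 1 CPM. Serpini1, neuroserpin, was lower at 3.55 ± 0.680 CPM in tumor, against 17.7 ± 0.587 CPM in spleen (-2.29, SE 0.12). Serping1, the C1 inhibitor, had 1 count over the tumor libraries and 33 over spleen, and Serpinc1 and Serpinb8 were lower at about 1 CPM or less.

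By the root mean square difference of centred log2 CPM over the 6 libraries, among 8474 abundant protein-coding genes, the genes most like Serpinb9b were Crtam (0.115) and Crem (0.118). Those most like Cst3 were Bloc1s1 (0.0178) and Vps13d (0.0297). Crtam was at 70.9 ± 4.22 CPM in tumor, against 11.0 ± 0.353 CPM in spleen, and Bloc1s1 at 17.4 ± 1.32 and 32.6 ± 1.10 CPM. The 6 libraries form 2 groups of 3, so this measure includes the difference between tissues that such genes share.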

How the data were processed

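RNA of 3 tumor and 3 spleen libraries of sorted P14 cells was read as single reads of 50 bp from low-input cDNA and stranded library kits, per the labels' protocols. Upstream tools listed by the submitters' processing notes were bcl2fastq 2.20.0.422, STAR 2.3 and featureCounts, with the build mm10. Not given in the sources used here are the annotation, the strand option and the handling of multiply matched reads. The deposited table holds whole-number counts per gene without normalization. Rows were matched to GENCODE release M21 by identifier without version; 55154 of 55335 had a symbol. Of 19522 rows with a total of at least 60 counts, 121 held the same counts in all 6 libraries as another row, among them 0 members, as happens when a read is counted for each gene it matches.

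The main test was the quasi-likelihood F-test of edgeR 4.0.16 (R 4.3.3) over all 6 libraries, with tissue as the factor, TMM scaling and genes kept by filterByExpr (minimum count 10, minimum total 15). P-values were adjusted over 19783 genes by Benjamini-Hochberg with a threshold of 0.05, and glmTreat tested against a 2-fold change. SE is the absolute log2 fold change over the square root of F. CPM divides by the library total; 0 counts allow up to 3 counts, at most 0.0855 CPM, and such floors cover counting error only. Ratios were compared by two-sided exact permutation tests (SciPy 1.17.1). The procedure was run on simulated data with few changed genes and the same spread in both tissues. These data differ in both respects, so that run does not measure the error rates here. Alternatives used DESeq2 1.42.0, limma 3.58.1, other scalings, no filter, a replicate block, each library left out, and related copies summed.

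No pair of libraries agreed within sampling noise (chi-square per degree of freedom at least 2.11). The members and lists were chosen with earlier results of these data known. All 10 members were named. From the other family genes, those with the 3 smallest p in each direction at 1 CPM or more and those in counts of 5 or fewer were named. Any protease could be named, as could the 2 interferon gamma genes with the smallest p in each direction, the most abundant marker of each list used, Cd8a and Cd3e, and the 2 genes most like the members with the largest rise and fall. The shared windows, ratios and motifs were added after the values were seen.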

Additional observations from a re-analysis of the deposited data

How the results depend on the processing

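Under the 13 alternatives applied to all results, 5 or 6 members were higher, 3 were lower, and 4 passed the 2-fold null, all 4 higher. The sixth was Serpinb1a without the first tumor library. Of 136 member values under alternatives, 134 kept their direction and their side of the threshold. The other exception was Serpinb6a, which took the value of all Serpinb6 genes when copies were summed (1.74), a change that follows from adding the abundant Serpinb6b. Deviations of equal-numbered libraries correlated at -0.083, 0.069 and 0.039, so the numbers were not taken as pairs. The replicate block changed no member call and gave 6746 higher and 7026 lower genes in place of 6890 and 7093. Without filtering, all 43 other family genes with a count were tested, and 10 were higher and 12 lower. In that fit 7398 of 35231 genes were higher and 7972 lower. The 2-fold null was passed upward by 8 other family genes with edgeR, 7 with limma and 3 with DESeq2, and of those on chromosome 13 by 6, 5 and 2. Over all genes tested it was passed upward by 1161, 992 and 871, in the same order. Cathepsins and legumain had 0 to 1 higher genes when 1 library was left out, the 1 arising without the third tumor library. Ctsl was lower with upper-quartile scaling (-0.37, adjusted p = 0.039, edgeR) and without the second tumor library (-0.44, adjusted p = 0.028, edgeR). The cause was not tested. Serpinb9e, Serpinb9f, Serpinb9g, Cst6 and Serping1 rest on few spleen or tumor counts, so their fold changes are less precise than those of the members.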

Other observations

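Serpins and cystatins aside, the lists used as background hold values not described above. Over all genes tested, 34.8% were called higher and 35.9% lower. The erythroid and platelet list was split, with 3 genes higher and 3 lower of 6, and its summed level was 174 to 190 CPM in tumor and 150 to 151 CPM in spleen. The NK cell list had 2 of 4 genes higher and 0 lower, at a summed 5.25 to 7.24 CPM in tumor and 4.16 to 5.13 CPM in spleen. Of the CD4 T cell list, 1 of 2 genes was lower. Named after their values were seen, the melanoma genes Dct and Tyrp1 had 51 and 64 counts over the tumor libraries and 1 and 0 over spleen, while Pmel was at 8.54 ± 0.876 CPM in tumor, against 19.8 ± 1.07 CPM in spleen. Stromal genes summed to 52.3 to 56.7 CPM in tumor and 85.6 to 88.1 CPM in spleen, nearly all of it Pecam1, which leukocytes also express, and the other 5 together had 0.288 CPM in tumor, against 0.769 CPM in spleen. The summed level of the 10 members was 981 to 1157 CPM in tumor and 544 to 558 CPM in spleen.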
